A study of Arabidopsis thaliana with 16 samples.

Results

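Organelle ribosomal protein genes of the Arabidopsis thaliana nucleus were taken as all main-category probe sets on chromosomes 1 to 5 whose description in the authors' annotation holds the words 30S ribosomal protein or 50S ribosomal protein. The rule found 37 probe sets for 37 loci among 28403 main-category probe sets, 9 of the 30S and 28 of the 50S subunit, and it used no measured value. The GO cellular components of the same annotation place 33 of them in the plastid only, 2 in plastid and mitochondrion (RPL3P and NFD1) and 2 in the mitochondrion only (AT5G16200 and AT5G23535). Chloroplast stroma is named for 28 of the members and chloroplast envelope for 23.

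Plastids translate their own messages on bacterial-type ribosomes, with a 30S subunit that decodes the message and a 50S subunit that forms the peptide bond. Some of the ribosomal proteins are encoded in the plastid genome, and the others are encoded in the nucleus, made in the cytosol and imported. In leaves these ribosomes make the photosystem core proteins, among them the D1 protein of photosystem II, which is replaced quickly in strong light. Several nuclear genes of the set carry EMB names because their loss stops the embryo.

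Transcripts of whole rosettes were measured on 16 Affymetrix gene arrays from 3 genotypes, namely a knockout of SAP3 (a zinc finger stress-associated protein), a knockout of CML49 (a calmodulin-like protein), and the wild type Col-0 (WT). All plants grew for 3 weeks at 80 µmol photons per square metre and second, by the design text, and then spent 10 days at 8 µmol (low light, LL). They were harvested after a step to 800 µmol (high light, HL) or in LL. For the length of the step the labels disagree, with 60 min in the titles and the design text but 10 min in the protocol. The study compared the transcripts between light levels within a genotype and between genotypes within a light level. The labels give 3 arrays of 15 plants each for sap3 in HL, sap3 in LL, WT in HL and WT in LL, and 1 pooled array of 45 plants each for cml49 in HL, cml49 in LL, WT in HL and WT in LL. The labels do not say whether the WT pools hold plants of the single WT replicates. All values are log2 signals, whose precision is limited by the number of arrays.

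The arrays looked like leaf tissue and departed from their labels in several places. Leaf genes were high (RBCS1A from 12.96 to 13.4), while the flower gene AP3 lay at 1.16 to 1.89, the root hair gene COBL9 at 1.37 to 2.15 and the seed gene SESA1 at 1.42 to 2.37. PYK10, listed as a root gene, lay at 7.9 to 9.31, and CRU3, listed as a seed gene, at 3.18 to 4.4. A light score over 250 other probe sets, chosen on the pools and set to 0 for LL and 1 for HL pools, was 0.027 in sap3 HL replicate 3, 0.954 in sap3 LL replicate 2 and 0.0655 in WT HL replicate 2. The other single arrays scored 0.92 to 1 where labelled HL and 0.03 to 0.06 where labelled LL. The 3 opposed arrays are therefore given apart, and each comparison was made on all 12 single arrays as labelled and on the 9 others, which leaves 2 arrays for sap3 in HL, 2 for sap3 in LL, 2 for WT in HL and 3 for WT in LL. Because arrays were left out by measured light-responsive genes, p-values of light comparisons in the 9 arrays are not independent of that choice. SAP3 itself read 6.98 in sap3 LL replicate 2, above every array labelled WT, and 3.94 in WT HL replicate 2, below every other array labelled WT. In the 9 arrays SAP3 read 5.06 and 5.28 in sap3 HL against 6.14 and 6.48 in WT HL. In LL it read 4.21 and 4.05 in sap3 against 4.84 to 5.14 in WT. CML49 read 4.23 in HL and 3.97 in LL in the cml49 pools, against 3.30 in HL and 2.77 in LL in the WT pools. The single WT arrays read 4.14 to 4.54 for CML49. Groups are therefore called by their labels throughout.

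All 37 members were tested, with no filter on low signal, and each probe set holds 13 to 28 probes marked as unique to its transcript. The mean over the 12 single arrays lay above the median of all signals (4.39) for 35 members. The others were PSRP3/2, which read 3.59 to 4.30, and RPL12-B, which read 2.58 to 3.22. The members with the highest mean signals were EMB3126 (protein L1 of the mobile stalk, 10.47 to 11.06), AT5G24490 (9.27 to 10.75), AT3G13120 (S10, 9.45 to 10.21) and AT4G01310 (L5, which binds 5S rRNA in bacteria, 9.07 to 9.63). Signals of different probe sets depend on their probes and give no order of transcript levels. The median within-group SD was 0.208 for the members and 0.2 for all probe sets in the 9 arrays.

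**Figure D1:**
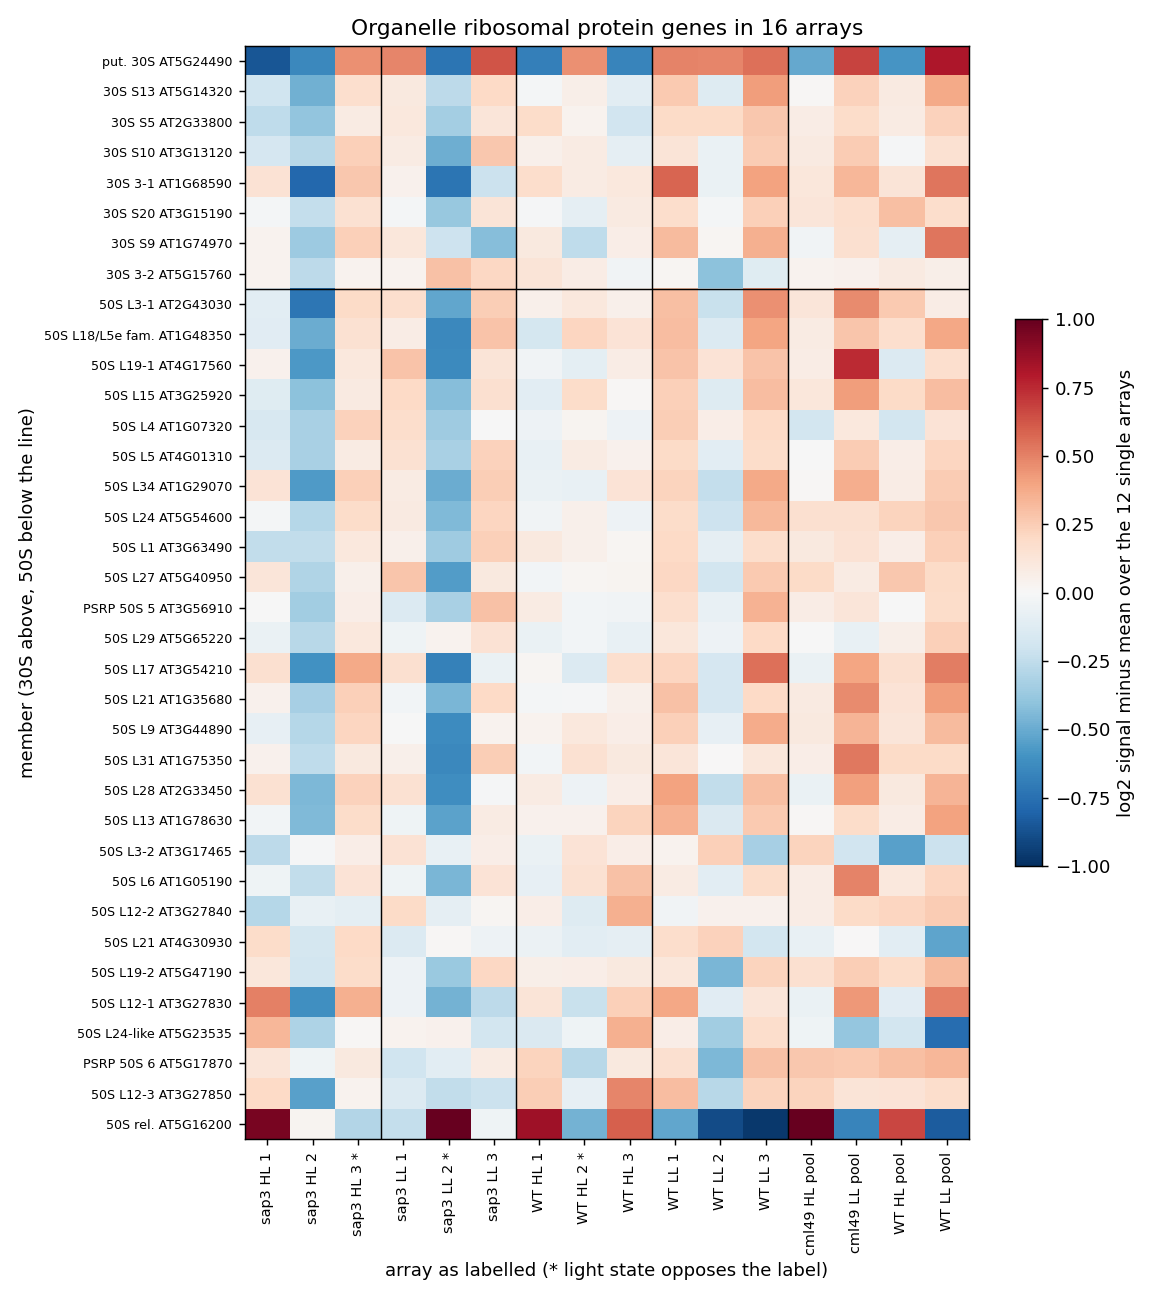
Each row is a member (30S above the line, 50S below, 1 member of the 30S not drawn), each column an array, and the colour is the log2 signal minus the member's mean over the 12 single arrays, with colours saturating at differences of 1. AT5G24490 (top row) follows the light state of each array, including the 3 arrays marked with an asterisk, and AT5G16200 (bottom row) does so less evenly, with sap3 HL replicate 2 (4.53) close to its mean over the arrays, while most other rows turn blue together in sap3 HL replicate 2 and sap3 LL replicate 2.

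The step to HL moved 2 members past the test, 1 downwards in both genotypes and 1 upwards in WT and in the mean of both. In the 9 arrays, AT5G24490 was lower in HL and AT5G16200 higher when sap3 and WT were averaged, and the other 35 members did not pass the threshold (limma, adjusted p under 0.05 over all probe sets). Against these 2 of 37 members, 15.1% of all probe sets passed in the same comparison. In sap3 alone 1 member was called, against 7.57% of all probe sets, and in WT alone 2 were called, against 9.13%. On the 12 arrays as labelled, 0 members passed in the mean of both genotypes, in sap3 or in WT, against 0% of all probe sets in each. At an unadjusted p under 0.05 limma counted 0 members in the mean of both genotypes, 0 in sap3 and 1 in WT there, against 7.69%, 3.14% and 6.16% of all probe sets. In the 9 arrays that count was 10 in the mean, 10 in sap3 and 2 in WT, against 26.7%, 19.5% and 20.4%.

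AT5G24490 is annotated as a putative 30S ribosomal protein (chromosome 5, 8365601 to 8367460, plus strand, in the coordinates of the authors' annotation). It is the Arabidopsis counterpart of spinach PSRP1, which sits in the decoding region of the small subunit like the bacterial factors that hold idle ribosomes, and its relative in the cyanobacterium Synechococcus, lrtA, is known as a light-repressed transcript. In sap3 it read 9.27 and 9.48 in HL replicates 1 and 2, against 10.61 and 10.75 in LL replicates 1 and 3. In WT it read 9.44 and 9.46 in HL replicates 1 and 3, against 10.62, 10.61 and 10.67 in LL replicates 1 to 3. All 4 HL arrays lay below all 5 LL arrays, with no overlap in either genotype. The 3 opposed arrays read 10.58 in sap3 HL replicate 3, 9.39 in sap3 LL replicate 2 and 10.58 in WT HL replicate 2, each inside or next to the range of the other light level. The pools read 9.61 in HL and 10.80 in LL for cml49, and 9.53 in HL and 10.93 in LL for WT.

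Group means of AT5G24490 in the 9 arrays were 9.38 ± 0.15 in sap3 HL and 10.68 ± 0.10 in sap3 LL (SD, n = 2 each), and 9.45 ± 0.01 in WT HL and 10.63 ± 0.03 in WT LL (SD, n = 2 and 3). The log2 difference was −1.31 in sap3 (SE 0.15, limma adjusted p = 0.000513), −1.18 in WT (SE 0.14, limma adjusted p = 0.000415) and −1.24 in the mean of both (SE 0.10, limma adjusted p = 2.05e-05), a signal 0.422 times that in LL. The difference between the genotypes was small beside its error in LL and HL alike, at −0.08 in HL (SE 0.15, limma adjusted p = 0.996). With the opposed arrays under their labels, the mean difference was −0.64 (SE 0.30, limma adjusted p = 0.619), and no alternative setting of that 12-array fit brought it past the threshold (adjusted p from 0.0887 to 0.872). In bulk tissue, fewer cells of a type and less transcript per cell cannot be told apart.

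**Figure D2:**
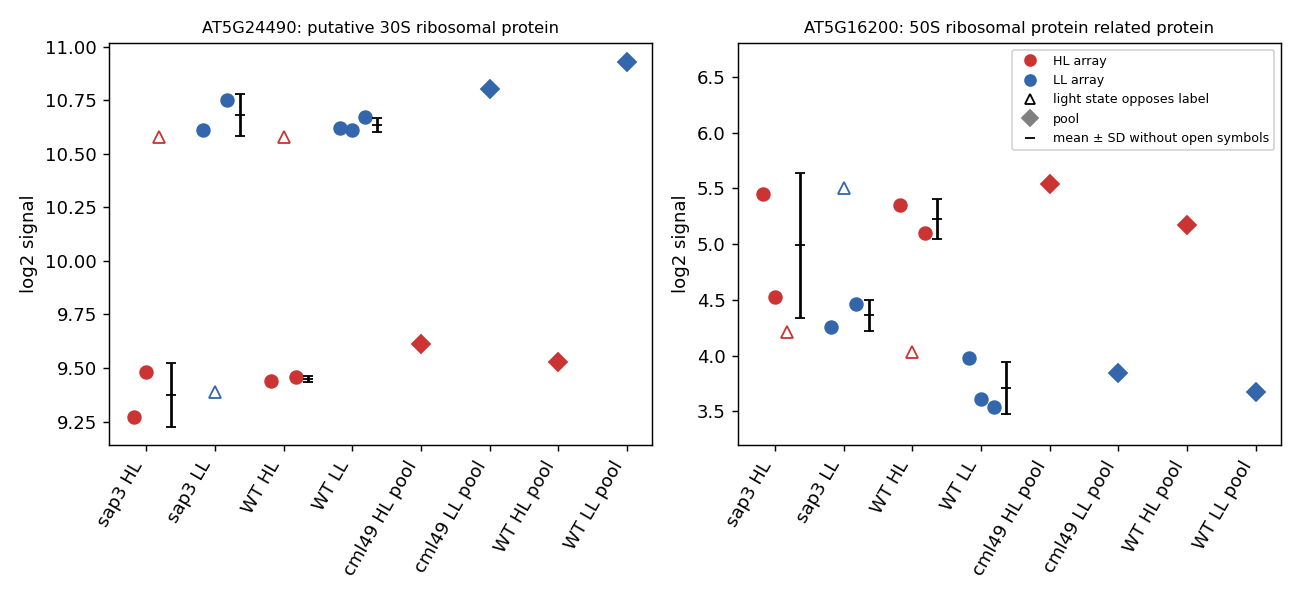
Log2 signal of AT5G24490 (left) and AT5G16200 (right) in every array by labelled group, with open triangles for the arrays whose light state opposes the label, diamonds for pools, and black bars for the mean ± SD of the filled circles. AT5G24490 separates into values of 9.27 to 9.61 and of 10.58 to 10.93, while AT5G16200 spreads more within groups.

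AT5G16200 is annotated as a 50S ribosomal protein related protein with a mitochondrial component (chromosome 5, 5289565 to 5290202, minus strand). In sap3 it read 5.45 and 4.53 in HL replicates 1 and 2, against 4.26 and 4.46 in LL replicates 1 and 3. In WT it read 5.35 and 5.10 in HL replicates 1 and 3, against 3.98, 3.61 and 3.54 in LL. The light levels did not overlap in either genotype, though sap3 HL replicate 2 lay only just above the sap3 LL arrays. The opposed arrays read 4.21 in sap3 HL replicate 3, 5.5 in sap3 LL replicate 2 and 4.03 in WT HL replicate 2. The pools read 5.54 in HL and 3.84 in LL for cml49, and 5.17 in HL and 3.67 in LL for WT.

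The log2 difference of AT5G16200 in the 9 arrays was 0.63 in sap3 (SE 0.28, limma adjusted p = 0.248), 1.52 in WT (SE 0.25, limma adjusted p = 0.00411) and 1.07 in the mean of both (SE 0.19, limma adjusted p = 0.00318), a signal 2.10 times that in LL. The call in WT was lost without WT HL replicate 1 (1.39, limma adjusted p = 0.0533). In sap3 the value was 1.09 without sap3 HL replicate 2 (limma adjusted p = 0.0321) and 0.17 without sap3 HL replicate 1 (limma adjusted p = 0.831). The difference of the 2 light responses, sap3 minus WT, was −0.89 (SE 0.38, unadjusted p = 0.041 in limma) and did not pass the adjustment (adjusted p = 1).

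Among the 30S proteins, all 9 had a lower mean signal in HL than in LL over both genotypes, with a median log2 difference of −0.20, but only AT5G24490 passed the test. EMB3137, plastid S13, whose bacterial form contacts the transfer RNA in the P site, read 7.28 and 7 in sap3 HL against 7.58 and 7.68 in sap3 LL, and 7.46 and 7.38 in WT HL against 7.74, 7.35 and 7.90 in WT LL. Its difference was −0.37 (SE 0.13, limma adjusted p = 0.106). EMB3113 encodes plastid S5, the SCA1 protein whose loss gives pale leaves with an uneven surface. It read 5.19 and 5.05 in sap3 HL against 5.55 and 5.57 in sap3 LL, and 5.63 and 5.26 in WT HL against 5.64, 5.64 and 5.72 in WT LL. The groups of EMB3113 did not overlap in either genotype, though only narrowly in WT, and the difference was −0.33 (SE 0.11, limma adjusted p = 0.0794).

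The other 30S members had smaller differences. AT3G13120 (S10) differed by −0.26 (adjusted p = 0.167), PSRP3/1 by −0.20, PRPS20 (S20) by −0.14 and RPS9 by −0.08, all by limma over both genotypes in the 9 arrays. PSRP3/2, the paralogue of PSRP3/1 with a signal below the median of the array, differed by −0.01. PSRP3/1 varied most within groups of these, with a within-group SD of 0.37 in the 9 arrays, and read 8.12 and 7.19 in sap3 HL. RPS9 read 9.29 and 8.89 in sap3 HL against 9.37 and 8.83 in sap3 LL, and 9.35 and 9.32 in WT HL against 9.57, 9.27 and 9.61 in WT LL, so that its light levels overlapped in both genotypes.

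Among the 50S proteins, 22 of 28 had a lower mean signal in HL, with a median difference of −0.16, and the only call was the increase of AT5G16200. The largest decrease belonged to AT2G43030, plastid L3, an early assembly protein near the peptidyl transferase centre in bacteria. It read 6.47 and 5.85 in sap3 HL against 6.74 and 6.82 in sap3 LL, and 6.63 and 6.63 in WT HL against 6.88, 6.35 and 7.03 in WT LL. Its HL and LL arrays overlapped in WT, and the difference was −0.37 (SE 0.17, limma adjusted p = 0.2). EMB3105 (L18, a 5S rRNA binding protein in bacteria) differed by −0.35 (SE 0.15, limma adjusted p = 0.172), and AT4G01310 (L5), its partner on 5S rRNA, by −0.27 (SE 0.11, limma adjusted p = 0.161).

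AT4G17560 (L19-1) and RPL4 (L4, which lines the exit tunnel for the new peptide) had HL values below all LL values in each genotype. AT4G17560 read 5.88 and 5.26 in sap3 HL against 6.12 and 5.96 in sap3 LL, and 5.80 and 5.91 in WT HL against 6.12, 5.97 and 6.12 in WT LL, a difference of −0.34 (SE 0.14, limma adjusted p = 0.141). Its paralogue AT5G47190 (L19-2) differed by 0.00 (SE 0.16, limma adjusted p = 0.992). RPL4 read 7.52 and 7.36 in sap3 HL against 7.86 and 7.68 in sap3 LL, and 7.63 and 7.63 in WT HL against 7.93, 7.75 and 7.88 in WT LL, a difference of −0.28 (SE 0.10, limma adjusted p = 0.114). With AT5G24490 and AT5G65220 (L29, at the tunnel exit in bacteria, −0.19), 4 members had all 4 HL arrays below all 5 LL arrays, against 8.77% of all probe sets, and AT5G16200 was the 1 member with all of them above, against 8.72%. Taken singly, 17 members lay wholly lower in HL in sap3, against 24.6% of all probe sets, and 5 in WT, against 20.2%. On the 12 arrays as labelled the counts were 0 in sap3, 4 in WT and 0 over both genotypes together, against 3.69%, 6.75% and 0.127%.

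RPL15 (L15) differed by −0.32 (SE 0.13, limma adjusted p = 0.138), and beside RPL4 and AT4G01310 the members of the 50S subunit with known mutants or partners in Arabidopsis ranged from RPL24 (L24, −0.22) and RPL27 (L27, −0.19) to PRPL28 (L28, −0.15) and emb1473 (L13, −0.14), with adjusted p from 0.332 to 0.657. The members above 0 beside AT5G16200 were RPL12-C (0.14), PSRP6 (0.13), AT5G23535 (0.12), RPL12-A (0.08) and AT5G47190, with adjusted p from 0.684 to 0.992. PSRP5 and PSRP6 are plastid-specific 50S proteins with no bacterial counterpart, and PSRP5 differed by −0.19. The remaining 10 members of the subunit lay between AT1G29070 (L34, −0.23) and NFD1 (−0.03), among them EMB3126 (L1, −0.21), AT3G54210 (L17, −0.19), RPL9 and RPL21C (−0.16 each), emb2184 (L31, −0.15), RPL3P (−0.11), emb2394 (L6, −0.07) and RPL12-B (−0.05), with adjusted p from 0.261 to 0.935.

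**Figure D3:**
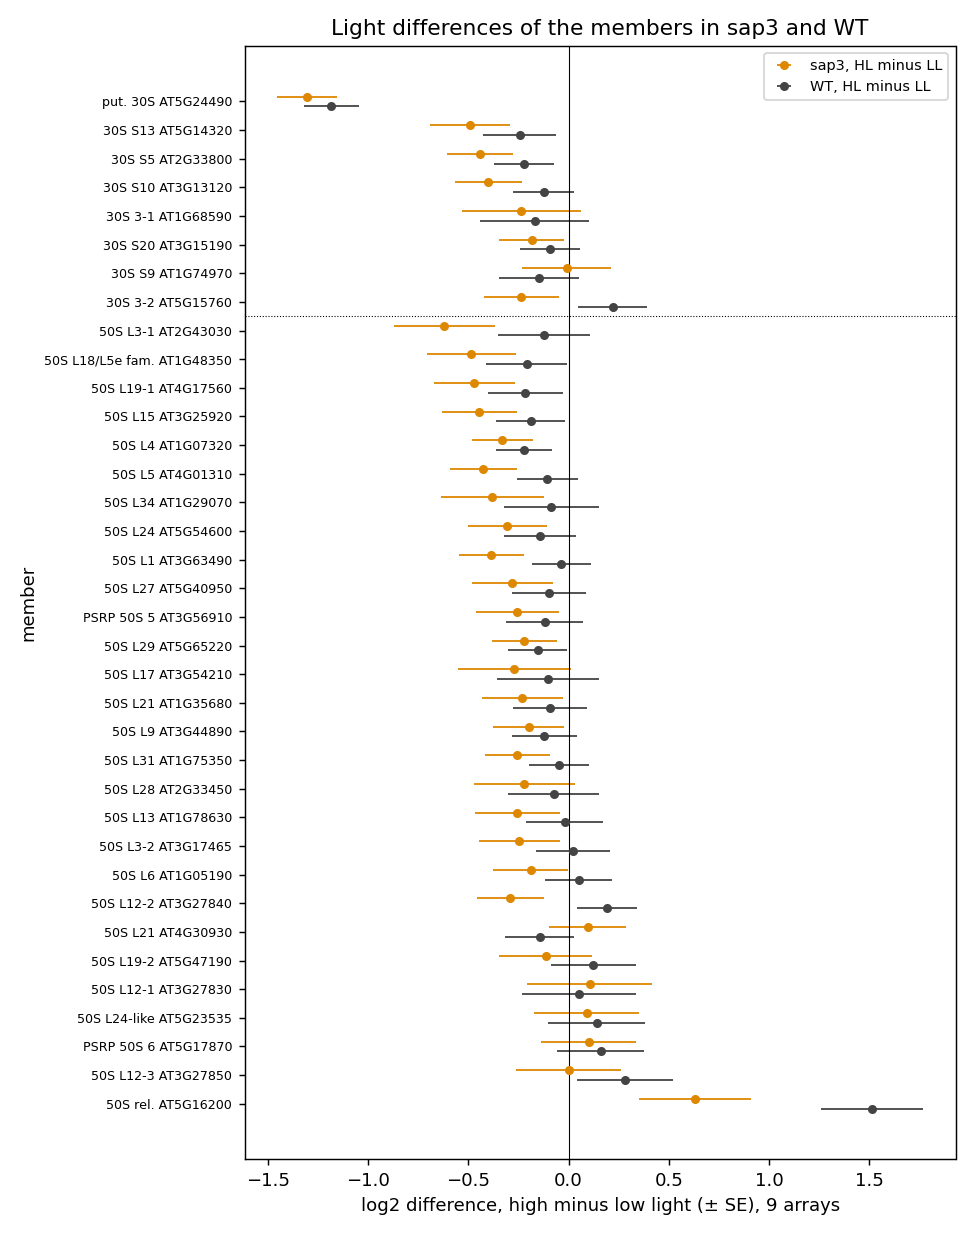
Log2 difference of HL minus LL for the members (1 of the 30S not drawn) in sap3 (orange) and WT (grey) in the 9 arrays, with bars for the standard error. AT5G24490 lies at −1.31 in sap3 and −1.18 in WT, AT5G16200 at 0.63 in sap3 and 1.52 in WT, and the other members drawn lie between −0.62 and 0.28.

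The 3 RPL12 genes encode the stalk protein that recruits translation factors to the ribosome, and they lie next to each other on chromosome 3 on the plus strand (10318505 to 10319432, 10323354 to 10323950 and 10324839 to 10325713). RPL12-A and RPL12-C had among the widest spreads within groups of all members, with SDs of 0.40 and 0.32 in the 9 arrays. RPL12-A read 9.85 and 8.73 in sap3 HL against 9.29 and 9.08 in sap3 LL, and 9.47 and 9.58 in WT HL against 9.73, 9.23 and 9.46 in WT LL. RPL12-C read 5.72 and 4.98 in sap3 HL against 5.39 and 5.31 in sap3 LL, and 5.77 and 6.01 in WT HL against 5.83, 5.25 and 5.75 in WT LL. Both were lowest in sap3 HL replicate 2, and their light levels overlapped in both genotypes. RPL12-B stayed near the bottom of the signal range in all arrays, so that a change of this gene was hard to measure.

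Taken over all members, the small differences ran mostly downwards in HL. In the 9 arrays the members' median log2 difference was −0.26 in sap3, with 31 of 37 members lower, and −0.10 in WT, with 27 lower. For all probe sets the medians were −0.03 in sap3 and −0.02 in WT, and the shares lower were 52.9% in sap3 and 52.6% in WT. For the mean of both genotypes the members' median was −0.16, with 31 lower, against −0.02 and 53.8% for all probe sets. In 20 of 37 members the difference was below 0 in sap3, WT, the cml49 pools and the WT pools, against 19.6% of all probe sets, and it was above 0 in all 4 for AT5G16200 and AT5G23535, against 17.3%. On the 12 arrays as labelled the members' median was 0.00 in sap3 with 18 lower, −0.10 in WT with 28 lower and −0.04 in the mean with 25 lower, against 51.3%, 52.6% and 52.7% of all probe sets.

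These medians depended on single arrays. Relative to the mean of the 12 arrays, the members' median was −0.33 in sap3 HL replicate 2, −0.38 in the opposed array sap3 LL replicate 2 and −0.11 in WT LL replicate 2, and it lay between −0.01 and 0.25 in the other 9 arrays. Of the 37 members, 27 had their lowest value in sap3 HL replicate 2 or sap3 LL replicate 2, against 18.7% of all probe sets. Of RPS1, GHS1, RPL10 and RPL11, plastid ribosomal proteins outside the set, RPL11 and GHS1 were lowest in the same arrays. RPL11 read 9.02 in both, against 9.11 to 9.64 in the other 10 single arrays. GHS1 read 8.25 in sap3 HL replicate 2 and 8.23 in sap3 LL replicate 2, against 8.38 to 8.92. RPL10 read 7.65 and 8.03 in the same order, against 7.90 in WT HL replicate 2. RPS1 read 7.98 and 7.72, against 7.91 in WT LL replicate 2, so neither was lowest in both. Of the 4 leaf mesophyll markers, LHCB1.3, a light-harvesting protein, read 10.67 in both, against 11.18 to 11.68, and PSAF, a photosystem I subunit, read 11.86 in sap3 HL replicate 2 and 11.81 in sap3 LL replicate 2, against 12.03 to 12.32. RBCS1A (12.96 in sap3 HL replicate 2 and 13.15 in sap3 LL replicate 2) and RCA (11.46 and 11.60 in the same order) were not both lowest there. The part of leaf genes in the members' values was not tested. Without sap3 HL replicate 2 the 9-array median became −0.09 in sap3 (25 lower) and −0.08 in the mean of both genotypes (24 lower). Without WT LL replicate 3 the median in WT was −0.03 (21 lower), and without WT LL replicate 2 it was −0.23 (32 lower). AT5G24490 kept its call in the 9 arrays when any single array was left out, with mean differences over all alternatives of −1.30 to −1.19.

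**Figure D4:**
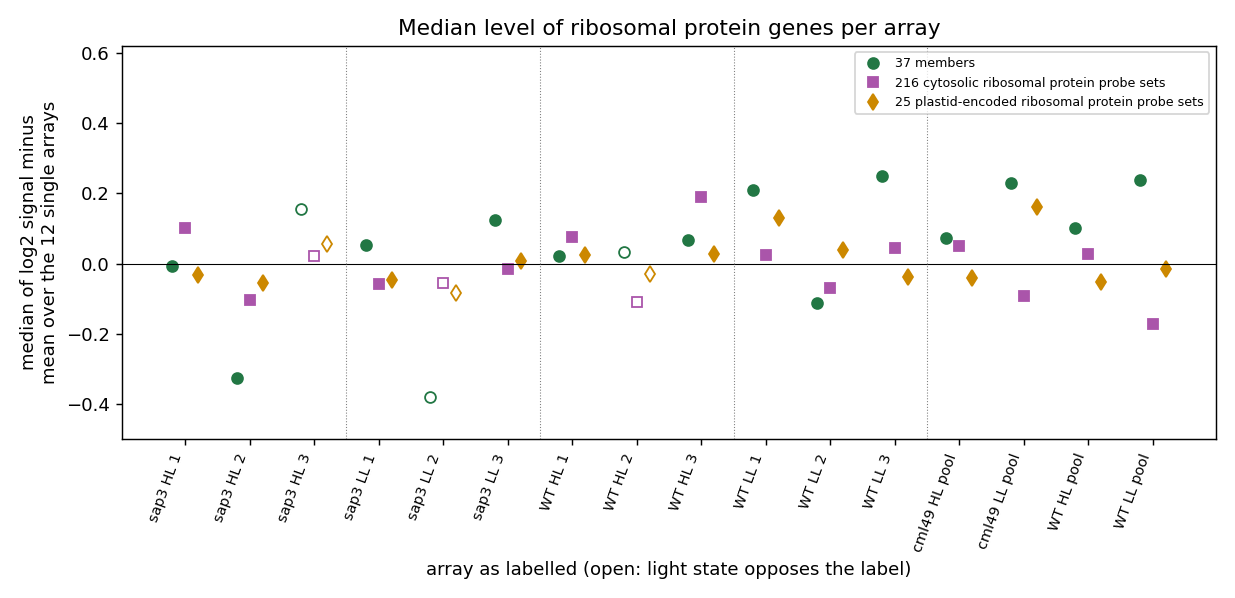
Median over the members (green circles), cytosolic ribosomal protein probe sets (purple squares) and plastid-encoded ones (orange diamonds) of the log2 signal minus the mean over the 12 single arrays, by array as labelled, with open symbols where the light state opposes the label. The members sit at −0.33 in sap3 HL replicate 2 and −0.38 in sap3 LL replicate 2, where the cytosolic set sits at −0.10 and −0.06. Of plastid ribosomal protein genes outside the set, not drawn, RPL11 and GHS1 were lowest there too, RPL10 and RPS1 not in both arrays.

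For ribosomal proteins outside the set, the medians in the mean of the 9 arrays were at or above 0 for the cytosolic and plastid-encoded lists. For the nuclear plastid ones they lay below 0, as for the members. The 216 probe sets of cytosolic ribosomal proteins had a median light difference of 0.08 in sap3, 0.14 in WT and 0.09 in the mean, and 10 of them rose in the mean (limma, adjusted p under 0.05), against 7.76% of all probe sets. None (0) was called on the 12 arrays as labelled, with 13 higher and 1 lower at an unadjusted p under 0.05 in limma, against 3.55% and 4.14% of all probe sets. The 25 probe sets of ribosomal proteins encoded in the plastid genome are a list added after the files were seen. They had medians of −0.02 in sap3, 0.01 in WT and 0 in the mean. Of them 0 were called, also at an unadjusted p under 0.05 in limma, against 26.7% of all probe sets in the mean. In the pools the list had a median light difference of −0.18 in cml49 (19 lower) and −0.04 in WT (17 lower). Some of its probe sets cannot separate the copies of duplicated plastid genes. Nuclear genes of the plastid ribosome whose descriptions lack the words of the rule (RPS1, GHS1 for S21, RPL10 and RPL11) had a median of −0.09 in the mean, with 0 of 4 called, also at an unadjusted p under 0.05. Of PSRP2 and PSRP4, plastid-specific proteins of the small subunit, 0 of 2 were called, also at an unadjusted p under 0.05, with −0.29 and −0.16.

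Several other genes of plastid gene expression changed in HL in the 9 arrays, where 7.36% of all probe sets were called lower and 7.76% higher in the mean of both genotypes. Of 14 probe sets for plastid translation factors, 3 fell in that mean and 0 rose, with 1 higher at an unadjusted p under 0.05. SVR9L1, a plastid initiation factor of the IF3 type, read 6.70 and 7 in sap3 HL against 7.77 and 8.07 in sap3 LL, and 6.93 and 6.74 in WT HL against 7.94, 7.65 and 7.79 in WT LL, a difference of −1.01 (SE 0.12, limma adjusted p = 0.000316). Its relative SVR9 differed by −0.39 (limma adjusted p = 0.0283) and HCF109, a plastid peptide release factor, by −0.33 (limma adjusted p = 0.045). Of 13 probe sets for ribosome assembly and rRNA maturation, 1 fell, namely DER, a GTPase for plastid rRNA processing, at −0.46 (limma adjusted p = 0.0176). Of 6 sigma factor and polymerase probe sets of plastid transcription, 2 rose, SIG5, the stress- and light-responsive sigma factor, at 4.04 (limma adjusted p = 3e-07) and SIG3 at 0.45 (limma adjusted p = 0.0134). On the 12 arrays as labelled, 0 probe sets of these 3 lists were called by limma, and 1, of plastid transcription, had an unadjusted p under 0.05.

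**Figure D5:**
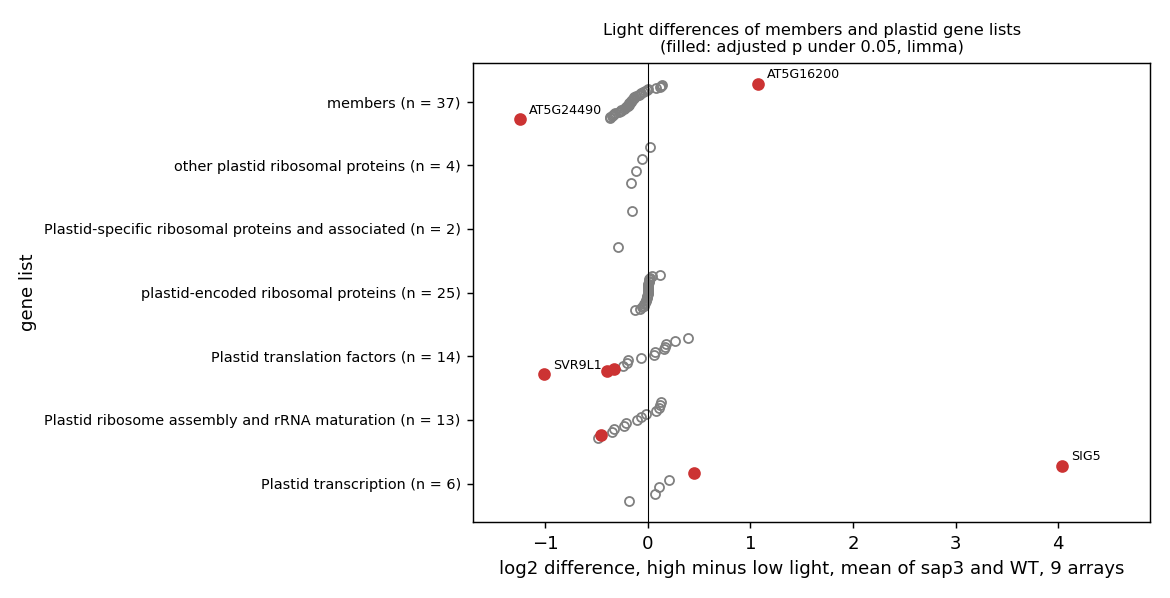
Log2 difference of HL minus LL in the mean of sap3 and WT (9 arrays), with a point per probe set and filled points for adjusted p under 0.05 in limma. In the members' row only AT5G24490 (−1.24) and AT5G16200 (1.07) are filled, and SVR9L1 (−1.01) and SIG5 (4.04) stand out in the lists of translation factors and transcription.

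Between the genotypes, no member passed the test. In HL, 0 members were called in the 9 arrays, against 0.00352% of all probe sets, and 1 had an unadjusted p under 0.05 (RPL12-B), against 4.48%. In LL, 0 were called, against 0% of all probe sets, and 1 had an unadjusted p under 0.05 (AT5G16200), against 6.01%. On the 12 arrays as labelled, 0 were called in HL and in LL, with 0 members in HL at an unadjusted p under 0.05, against 2.86%, and 2 in LL, against 4.52%. In HL, 36 of 37 members had a lower mean in sap3 than in WT, with a median of −0.22, against 49.1% and a median of 0 for all probe sets. Without sap3 HL replicate 2 this became 21 of 37 with a median of −0.04, and with a replicate block 22 with a median of −0.02. As labelled, the 12 arrays had 33 members lower (median −0.10), against 49.5% of all probe sets.

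The 3 members with the largest decreases of sap3 against WT in HL were RPL12-C (−0.54, SE 0.26), AT2G43030 (−0.47, SE 0.25) and PSRP3/1 (−0.46, SE 0.30), all with a limma adjusted p of 0.996, and the single member above 0 was NFD1 (0.08, SE 0.19), the L21 protein named for nuclear fusion in the female gametophyte. In LL, 22 members were lower in sap3, against 48.7% of all probe sets, with a median of −0.03. With single arrays left out, that median ranged from −0.14 without WT LL replicate 2 (30 lower) to 0.06 without WT LL replicate 3 (14 lower), was 0.02 without WT LL replicate 1 and 0.02 without sap3 LL replicate 1 (15 lower each), and was 0.02 after a new quantile normalisation. As labelled, the 12 arrays had 32 members lower with a median of −0.20, against 49.8% of all probe sets, and that median was −0.03 without sap3 LL replicate 2. In the 9 arrays, PSRP3/1 (−0.39, SE 0.27), RPS9 (−0.38, SE 0.20) and RPL12-A (−0.29, SE 0.28) were lowest relative to WT, and AT5G16200 (0.65, SE 0.25), PSRP3/2 (0.30, SE 0.17) and RPL3P (0.13, SE 0.18) highest, with limma adjusted p from 0.765 to 0.972.

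The difference between the light responses of sap3 and WT passed the test for no member, with 0 called against 0% of all probe sets in the 9 arrays and in the 12 arrays alike. At an unadjusted p under 0.05 limma counted AT5G16200 alone in the 9 arrays, against 4.2% of all probe sets, and PSRP3/2 alone in the 12, against 2.62%. The response was more negative in sap3 for 34 of 37 members in the 9 arrays (median −0.21), against 50.7% of all probe sets, and for 11 of 37 on the 12 arrays as labelled (median 0.10), against 49.2%. Without sap3 HL replicate 2 the 9-array count was 19 with a median of −0.03, and with a replicate block it was 11 with a median of 0.15, the opposite sign. After AT5G16200, the largest negative differences belonged to AT2G43030 (−0.50, SE 0.34) and RPL12-B (−0.48, SE 0.22), and the positive ones to NFD1 (0.24, SE 0.26), RPS9 (0.14, SE 0.30) and RPL12-A (0.05, SE 0.42), all with a limma adjusted p of 1.

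The pools have 1 array per group, so their differences carry no replicate check and no test. In HL against LL, 4 members differed by at least 0.5 in cml49, against 24.5% of all probe sets, and 5 in WT, against 25.3%. Common to both were AT5G24490 (−1.19 in cml49 and −1.40 in WT), RPL12-A (−0.50 in cml49 and −0.62 in WT) and AT5G16200 (1.70 in cml49 and 1.5 in WT). AT4G17560 (−0.67) was past that size in cml49 only, and RPS9 (−0.63) and AT5G23535 (0.58) in WT only, differences between the pools that were not tested. The median over the members was −0.17 in each, with 29 of 37 lower in each, against shares of 51.1% in cml49 and 49.5% in WT for all probe sets.

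The remaining members stayed within these sizes. The next largest decreases in the pools were those of PRPL28 (−0.48) in cml49 and of PSRP3/1 (−0.40) in WT. RPL3P, the L3 protein with plastid and mitochondrial components, differed by 0.42 in cml49 and by −0.33 in WT, from 6.07 in HL and 5.65 in LL for cml49 and 5.30 in HL and 5.63 in LL for WT. The 4 members with a mitochondrial component had medians of 0.38 in cml49 and 0.50 in WT, and the 33 with plastid only had medians of −0.19 in cml49 and −0.18 in WT. In the 9 single arrays the mitochondrial medians were 0.09 in sap3 and 0.08 in WT, and the plastid ones −0.26 in sap3 and −0.10 in WT. These 4 members include the called AT5G16200, and RPL3P and NFD1 also have a plastid component. In the mean of both genotypes 2 of the 4 were higher in HL and 2 lower. The difference between the 2 sets was not tested.

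Between the pools labelled cml49 and WT, few members were past 0.5. In HL, 1 member was past 0.5, against 11.4% of all probe sets, RPL3P at 0.77. In LL, 2 were past it, against 14% of all probe sets, AT4G17560 at 0.58 (6.58 in cml49 and 6 in WT) and NFD1 at 0.53 (5.07 in cml49 and 4.54 in WT). The members' medians were −0.03 in HL and −0.05 in LL.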

How the data were processed

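Per the submitters' processing notes, the deposited log2 signals were made by the authors with RMA in Affymetrix Expression Console. Software version and genome build are not given in the sources used here. Descriptions, probe numbers, positions and GO components came from the authors' deposited annotation, and symbols from a RefSeq table in which all 37 loci matched. Main-category probe sets (28403) were fitted with limma 3.58.1 in R 4.3.3 (two-sided, lmFit with 4 group means, then eBayes) with Benjamini-Hochberg adjustment over all of them. A call means an adjusted p under 0.05. Mean light is the average of the sap3 and WT differences. For pools, log2 differences are given with no test. The labels call replicates biological, with 15 plants each. Named were called members, the largest differences each way, the highest and lowest signals, neighbouring loci, and members with known mutants. The members, lists and naming rule were chosen with earlier results of these data known. The fits were tested on simulated data, with noise independent between probe sets and no array opposed to its label, unlike these data. There the mean light fit of the 9 arrays recovered 10 of 50 changes of 0.5 and 37 of 50 changes of 1. A change of 0.5 or less would thus mostly go uncalled. Alternatives covered the prior, array weights, a replicate block, scaling, dim probe sets and leaving out arrays. The single values of 1 member are not reported here; it is included in all counts and medians.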

Additional observations from a re-analysis of the deposited data

How the results depend on the processing

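In the 9 arrays, AT5G24490 kept its call in sap3, in WT and in their mean under every alternative tried, with adjusted p up to 0.0127 in sap3, 0.00825 in WT and 0.000246 in the mean. AT5G16200 kept its call in the mean (adjusted p up to 0.0178). Of 300 alternative values for counts of members, 282 lay within 1.5 times the reported count and 18 did not. Many of the reported counts were 0, in comparisons where 0 or 1 of all probe sets passed the test. Those counts could hardly move, so the 282 are no measure of how stable the other counts are. A mean-dependent prior raised the calls to 7 in mean light, adding RPL4, AT3G13120, RPL15, AT4G01310 and EMB3137, all lower in HL, with 17.5% of all probe sets called, and to 2 in sap3 light, adding AT4G01310. Leaving out dim probe sets gave 5 in mean light, adding RPL4, EMB3113 and EMB3137, all lower, with 32.6% of the 15141 remaining probe sets called. That filter kept probe sets whose highest group mean reached the median of all signals. AT5G16200 passed it only through the HL groups, where it was high, so its call under this setting adds nothing to the others. Leaving out single arrays gave 1 to 2 calls in WT light (1 without WT HL replicate 1), 1 to 2 in sap3 light (2 without sap3 HL replicate 2) and 2 to 3 in mean light. Members without overlap downwards, recounted in an alternative added after seeing the data, ranged in the 9 arrays from 5 to 27 in WT (27 without WT LL replicate 2), from 17 to 34 in sap3 (34 without sap3 HL replicate 1) and from 4 to 10 in the mean (10 without WT LL replicate 2). In the 12 arrays they ranged from 4 to 26 in WT (26 without WT LL replicate 2), 0 to 6 in sap3 and 0 to 2 in the mean (6 and 2 without sap3 LL replicate 2). On the 12 arrays, AT5G16200 in sap3 had a difference of −0.01 that changed sign with array weights (0.19) and ranged from −0.37 to 0.37 without single sap3 arrays, being 0.37 without sap3 LL replicate 2, 0.25 without sap3 HL replicate 3 and 0.09 without sap3 HL replicate 2. With a pool difference of at least 1, the light counts were 2 in cml49 and 2 in WT, and 0 between the genotypes in HL and in LL. The cause of these shifts was not tested. Over all probe sets, deviations from the group means correlated over 0.1 in 0 of 10 pairs of same-numbered arrays in the 9 arrays and in 4 of 18 in the 12 (−0.633 to 0.527). These correlations cannot decide whether the numbers pair the arrays. In the 9 arrays the deviations in groups of 2 mirror each other, and in the 12 the opposed light states enter them. The main fits did not pair arrays by number, although the 3 arrays with the lowest member medians all carry number 2. A replicate block left the calls at 2 in mean light, 1 in sap3 light and 2 in WT light, with member medians of −0.12, −0.04 and −0.23, and gave medians of −0.02 in HL and −0.16 in LL for sap3 against WT and of 0.15 for the difference of the light responses, which was −0.21 without it.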
